A study of Mus musculus with 4 samples.

Results

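The genes described here are 8 genes of neurotrophin and GDNF signalling, measured in embryonic mouse cochlear ducts that had lost the transcription factor gene Tbx2 in Sox2-expressing cells. They are the ligand genes Bdnf, Ntf3 and Gdnf and the receptor genes Ntrk2, Ntrk3, Ngfr, Gfra1 and Ret, chosen by their gene symbol among 29924 gene names on the array. All 13 probes that carry these symbols were read. Of these, 12 were bright enough to be tested, and at least 1 probe of each of the 8 genes was among them.

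Cochlear ducts were taken at E14.5 from embryos of the NMRI strain, after the dams had received 4 mg tamoxifen by mouth at E12.5. Mutant embryos (Sox2-Tbx2LOF) had the genotype Sox2(creERT2);Tbx2(fl/fl), in which a tamoxifen-dependent Cre made from the Sox2 locus recombines the floxed Tbx2 alleles. Controls were labelled Tbx2(fl/n.d.), with the second allele not determined, and the methods of the study call them negative for cre, so a copy of Sox2 altered by the Cre insertion is present in the mutants and not in the controls. Both groups received tamoxifen. The matings given in the methods also bring in a Cre reporter at the Rosa26 locus, which the sample labels do not list. Each of the 4 arrays held the cRNA of 1 mutant pool and 1 control pool of ducts in different dyes. Arrays 1 and 2 held female and arrays 3 and 4 male pools. The dyes were swapped within each sex, so that Cy5 marked the mutant pool on arrays 1 and 3 and the control pool on arrays 2 and 4. According to the methods the spiral ganglion was removed from the ducts during dissection.

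Neurotrophins are secreted growth factors that keep neurons alive and guide their fibres. BDNF binds the receptor tyrosine kinase TrkB (Ntrk2) and NT-3 binds TrkC (Ntrk3), and in the inner ear both factors are made by the sensory epithelium and act on the neurons that innervate it. The p75 receptor (Ngfr) binds all neurotrophins and has no kinase. GDNF binds the membrane-anchored co-receptor GFRa1 (Gfra1), and the complex activates the kinase RET. Both Trk genes also give rise to truncated forms that lack the kinase part.

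The probes of Ntrk2 and Ntrk3 fall into classes for the different forms, taken from the transcripts listed with each probe and not checked against a genome. The sequences of 4 coding probes are shown because the results on the forms rest partly on them. They are given 5′ to 3′ on the transcript, with mm9 positions from the array files. The Ntrk2 probe at chr13:58979563-58979622 (plus strand) is listed for both the truncated and the full-length transcripts. The truncated Ntrk3 probe at chr7:85447515-85447574 (minus strand) ends on the stop codon of the truncated form, in capitals. The first full-length Ntrk3 probe, at chr7:85392044-85392103 (minus strand), holds in capitals the codons of the motif that tyrosine kinases share at the start of the activation loop. The second, at chr7:85337455-85337514 (minus strand), was the brighter of the full-length probes.
Ntrk2, both forms: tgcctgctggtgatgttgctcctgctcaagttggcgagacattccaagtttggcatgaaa
Ntrk3, truncated form: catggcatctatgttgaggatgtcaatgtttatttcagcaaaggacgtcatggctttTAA
Ntrk3, full-length form, activation loop: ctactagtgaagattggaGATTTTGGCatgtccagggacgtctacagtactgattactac
Ntrk3, full-length form, brighter probe: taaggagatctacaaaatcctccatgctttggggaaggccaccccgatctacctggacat

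Levels are normalized log2 signals of the 2 dyes after loess within each array, averaged over up to 4 spots of a probe, and a ratio is the log2 of mutant over control signal on 1 array. Signals of different probes were not read as relative levels of their genes, because probes bind with different strength. They were ranked to pick the brightest probe of a gene, and added up in the summed signals of marker lists. Between 69.2% and 72.0% of probes were well above background in a pool, and no gene spot was saturated. The test was limma's moderated test on the 4 ratios with a dye term and Benjamini-Hochberg adjustment over 21042 genes, each read by its brightest probe. A gene was called where the adjusted p was below 0.05 and the fold change at least 1.5. As checks of the labels, Esr1 (the estrogen receptor whose human counterpart is part of creERT2) was well above background in all 4 mutant pools and in 0 control pools, at least 4.24-fold higher in the mutants. The Tbx2 probe was lower on 4 of 4 arrays with a log2 ratio of -0.12 ± 0.098 (SD, n = 4). The groups overlapped, and the probe did not pass when each probe was fitted on its own (limma, adjusted p = 0.145). Whether that probe lies in the deleted part was not analysed here. The Sox2 ratio was 0.012 ± 0.18 (SD, n = 4).

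Of the 8 genes, Ngfr, Bdnf and Ntf3 fell in the mutant ducts with an adjusted p below 0.05, and 4 did not pass. Ntrk3 was past that threshold in the other direction, by its brightest probe, which reads the truncated form only. Ngfr was the only one that also reached the fold change of 1.5. Over all genes tested, 2.92% were lower and 2.26% higher at that adjusted p, and 0.309% were called lower and 0.133% called higher. In 5 of the 8 genes every mutant pool was below every control pool, which was so for 2.54% of all genes. In 1 gene (Ntrk2) every mutant pool was above every control pool, against 1.74% of all genes. Within arrays, the mutant pool was the lower one on 4 of 4 arrays in 5 genes and the higher one in 2, against 9.31% and 8.85% of all genes. The plot of signals by pool shows these differences gene by gene.

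**Figure D1:**
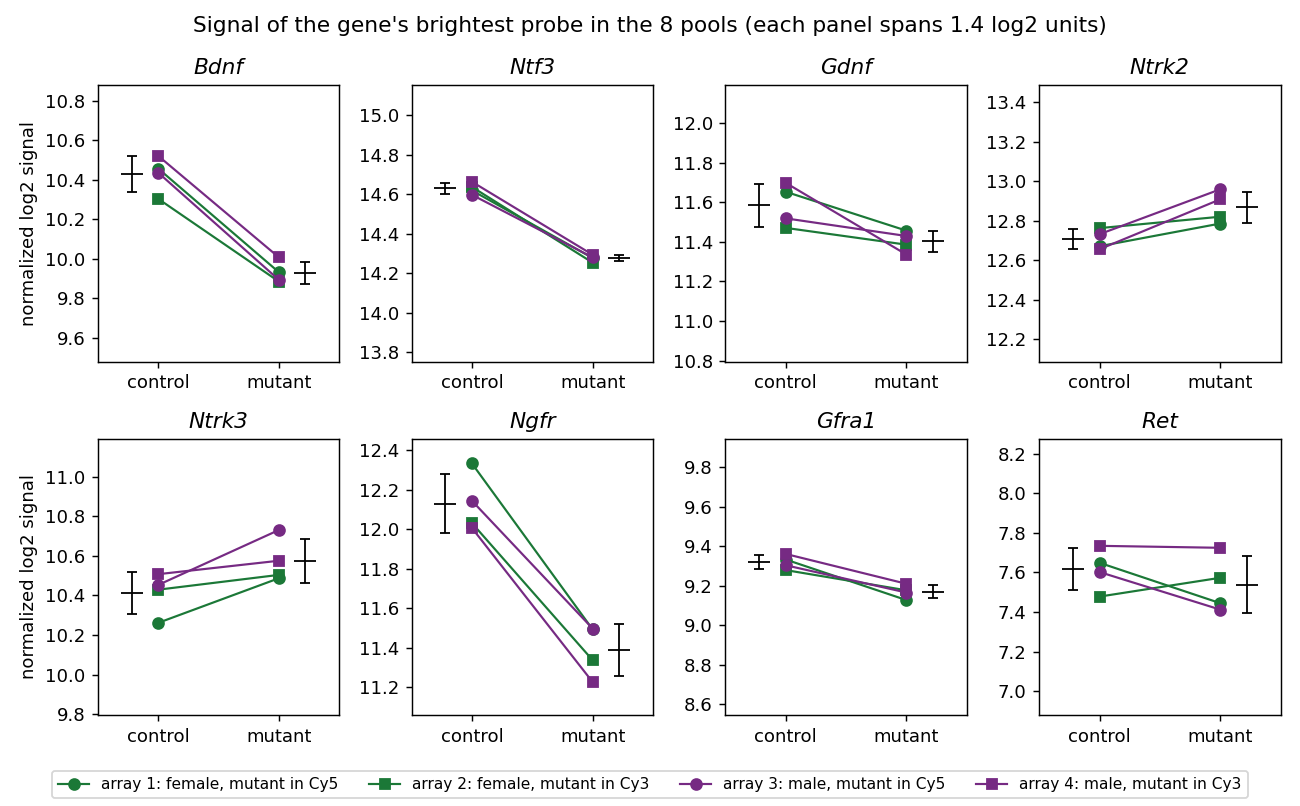
Normalized log2 signal (y axis) of the brightest probe of each gene in control and mutant pools (x axis), with a line joining the 2 pools of an array, colour for sex, marker for the mutant's dye, and black bars for mean and SD over 4 pools. The lines of Ngfr, Bdnf and Ntf3 fall on all 4 arrays with no overlap between the groups, whereas the lines of Ret go in different directions.

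Among the ligands, Bdnf fell by 0.50 on the log2 scale. Its log2 signal was 10.46, 10.30, 10.44 and 10.52 in the control pools and 9.93, 9.89, 9.89 and 10.01 in the mutant pools of arrays 1 to 4. Every mutant pool was below every control pool, whether female or male and in either dye. The log2 ratios of -0.52, -0.42, -0.54 and -0.51 averaged -0.50 ± 0.055 (SD, n = 4), a 1.41-fold lower level, with an adjusted p of 0.00026 (limma) and a 95% confidence interval from -0.58 to -0.42. The fold change stayed under 1.5, so Bdnf was not called. The probe lies at chr2:109566961-109567020 (plus strand).

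Ntf3, the gene of neurotrophin 3, fell by less and with the smallest spread of the 8 genes. The control pools had log2 signals of 14.62, 14.64, 14.60 and 14.66, and the mutant pools 14.28, 14.25, 14.28 and 14.29. The groups were well separated, with a gap that exceeded the range within either of them. The ratios of -0.34, -0.38, -0.32 and -0.37 averaged -0.35 ± 0.030 (SD, n = 4), a 1.28-fold lower level with an adjusted p of 0.0010 (limma). The probe lies at chr6:126051431-126051490 (minus strand).

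Gdnf, the ligand of the RET complex, did not pass the test. Its log2 signal was 11.65, 11.47, 11.52 and 11.70 in control and 11.46, 11.39, 11.43 and 11.34 in mutant pools. The mutant pool was the lower one on each array and the groups did not overlap, but the highest mutant and the lowest control pool lay close together. The ratios of -0.20, -0.08, -0.09 and -0.36 gave a mean of -0.18 ± 0.13 (SD, n = 4) and an adjusted p of 0.087 (limma), with a 95% confidence interval from -0.30 to -0.07. Without array 2, one of the arrays with a small ratio, the value was -0.25 with an adjusted p of 0.017 (limma), and without array 4, which had the largest drop, it was -0.11 with an adjusted p of 0.38. The probe lies at chr15:7787474-7787533 (plus strand).

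Among the receptors, Ngfr fell most. The log2 signal of its probe at chr11:95430211-95430270 (minus strand) was 12.33, 12.03, 12.14 and 12.01 in control pools and 11.49, 11.34, 11.50 and 11.23 in mutant pools. All mutant pools were below all control pools, and the female pools of array 1 and the male pools of array 4 showed the larger drops. The ratios of -0.84, -0.69, -0.65 and -0.78 averaged -0.74 ± 0.086 (SD, n = 4), a 1.67-fold lower level with an adjusted p of 0.00012 (limma) and a 95% confidence interval from -0.84 to -0.64. In such tissue pools, fewer cells of a type and less RNA per cell cannot be told apart.

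The TrkB gene Ntrk2 was read by 3 probes that did not move together. The probe shared by both forms, the brightest, had log2 signals of 12.67, 12.76, 12.73 and 12.66 in control and 12.79, 12.82, 12.96 and 12.91 in mutant pools, with ratios of 0.11, 0.06, 0.23 and 0.25. The mutant pool was higher on each array and the groups did not overlap, but the mean of 0.16 ± 0.092 (SD, n = 4) did not pass the test, with an adjusted p of 0.082 (limma). Without array 2 it was 0.21, with an adjusted p of 0.039 (limma), and without array 4 it was 0.11, with an adjusted p of 0.38.

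The probe for truncated Ntrk2 at chr13:59038046-59038105 gave ratios of 0.22, 0.03, -0.17 and 0.21. Its sign differed between arrays, and its groups overlapped. The probe for full-length Ntrk2 at chr13:59230936-59230995 was well above background in 3 control pools and in 0 mutant pools. The mutants therefore have only a bound, and the probe was left out of limma's fit. Its measured log2 signals were 7.02, 6.78, 7.13 and 6.78 in control and 6.52, 6.61, 6.63 and 6.58 in mutant pools. The bound from the mean over control pools was a 1.25-fold higher level in control. That mean includes a pool not well above background, so the bound is not a strict lower limit. The ratios of -0.50, -0.17, -0.50 and -0.19 were larger in size on the arrays with the mutant in Cy5 and had the opposite sign to those of the shared probe.

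The TrkC gene Ntrk3 was read by 4 probes, 2 for each form. The truncated-form probes were higher on all 4 arrays, and the full-length probes had no common sign. The brightest, a truncated-form probe at chr7:85445908-85445967 (minus strand), had log2 signals of 10.26, 10.43, 10.45 and 10.51 in control and 10.49, 10.50, 10.73 and 10.58 in mutant pools. The groups overlapped, although the mutant was the higher pool on each array. The ratios of 0.23, 0.07, 0.28 and 0.07 averaged 0.16 ± 0.11 (SD, n = 4), larger on the arrays with the mutant in Cy5, and passed with an adjusted p of 0.038 (limma). The fold change stayed under 1.5, and the adjusted p was below 0.05 in 3 of 15 alternative settings.

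The other truncated-form Ntrk3 probe, the one ending on the stop codon shown above, had log2 signals of 9.71, 9.84, 9.80 and 9.18 in control and 10.10, 10.02, 10.04 and 9.97 in mutant pools. The mutant pools were alike and all above the controls, and the control pool of array 4 was far below the other controls. The ratios of 0.39, 0.18, 0.24 and 0.79 averaged 0.40 ± 0.28 (SD, n = 4), with an adjusted p of 0.051 when each probe was fitted on its own (limma). The full-length probes, whose sequences are also shown above, gave no common direction. The activation-loop probe had ratios of -0.17, -0.09, 0.04 and 0.10, and the brighter one, read from 2 to 4 spots, -0.18, 0.04, -0.09 and 0.14.

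The difference between the forms of Ntrk3 was taken within each array, as the mean ratio of truncated-form probes minus that of full-length probes. It was 0.48, 0.15, 0.28 and 0.31 on arrays 1 to 4, with a mean of 0.31 ± 0.13 (SD, n = 4). It was above 0 on 4 of 4 arrays. A two-sided exact sign-flip permutation test over arrays gave p = 0.125, the smallest p that this test can give with 4 arrays. The test therefore cannot decide whether the forms of Ntrk3 differ. For Ntrk2, with 1 probe of each form, the difference averaged 0.41 ± 0.22 (SD, n = 4) and was above 0 on 4 of 4 arrays. The same exact sign-flip test gave p = 0.125 for Ntrk2. No conclusion is drawn from it, because the full-length Ntrk2 probe is not well above background in the mutants. Probes of a form share the same RNA on an array and are not replicates. The ratios of all probes are shown in the plot by array.

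**Figure D2:**
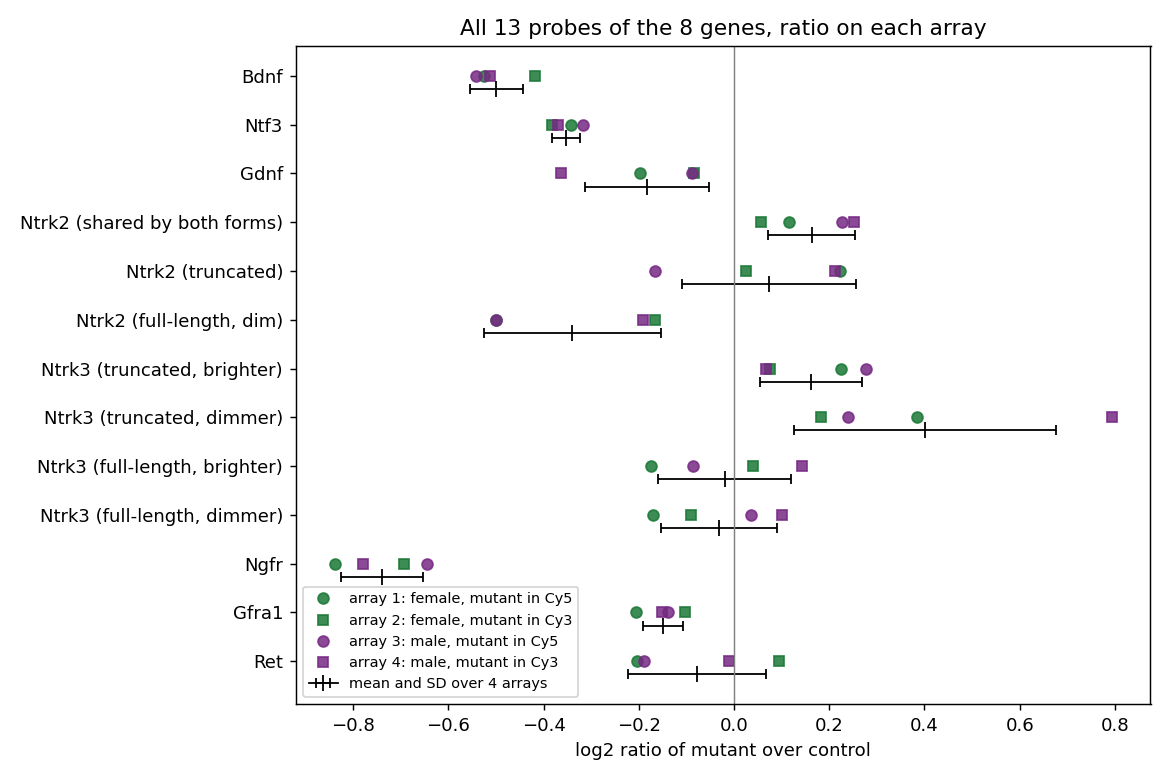
Log2 ratio of mutant over control (x axis) for each of the 13 probes (y axis), with a point per array coloured by sex and shaped by the mutant's dye, and the mean and SD over 4 arrays as a black bar. Ngfr, Bdnf and Ntf3 lie left of 0 on all arrays, the truncated-form Ntrk3 probes lie right of 0, and the full-length Ntrk3 probes lie on both sides.

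The GDNF receptors did not pass the test. For Gfra1, the co-receptor, the log2 signals were 9.33, 9.28, 9.30 and 9.36 in control and 9.13, 9.18, 9.17 and 9.21 in mutant pools. The mutant pools were all lower, by a small amount that was similar on each array. The mean ratio was -0.15 ± 0.043 (SD, n = 4), with an adjusted p of 0.055 (limma) and a 95% confidence interval from -0.23 to -0.07. Its probe lies at chr19:58311604-58311663 (minus strand). Ret had log2 signals of 7.65, 7.48, 7.60 and 7.73 in control and 7.44, 7.57, 7.41 and 7.72 in mutant pools, and the groups overlapped. The ratios of -0.20, 0.10, -0.19 and -0.01 averaged -0.08 ± 0.14 (SD, n = 4), with an adjusted p of 0.28 (limma) and a 95% confidence interval from -0.16 to 0.01. The negative Ret ratios of larger size were those of the arrays with the mutant in Cy5. The probe lies at chr6:118101791-118101850 (minus strand).

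The change did not differ detectably between the sexes in any of the 8 genes. The mean ratio of Ngfr was -0.77 on the female and -0.71 on the male arrays, and that of Bdnf was -0.47 and -0.53. Ntf3 had -0.36 in female and -0.34 in male pools. The largest difference was that of Ntrk2, with 0.09 in female and 0.24 in male pools and an unadjusted p of 0.099 in limma's fit across all genes. With 2 arrays per sex, the adjusted p of the difference was 1.00 for each of the 8 genes in that fit. Of all genes tested, 0 had an adjusted p below 0.05 in limma, and 558 had an unadjusted p below 0.05.

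The remaining neurotrophin and GDNF family genes were counted in the same way. Of 15 tested genes of the neurotrophin system beside the 8, 1 was higher and 1 lower at an adjusted p below 0.05. Over all genes tested these shares were 2.26% and 2.92%. The median log2 ratio of the 15 was 0.01, against 0.002 over all genes tested. Among these 15, 6 had an unadjusted p below 0.05 in limma's fit. The share of all genes tested at that unadjusted p was not computed here. Counts at it, here and in the lists below, are therefore not read as more or fewer than among all genes. Tnfrsf19, a member of the tumour necrosis factor receptor family, was lower, at -0.21 (limma, adjusted p = 0.035), with a slightly positive ratio on array 4, and its adjusted p was below 0.05 in 7 of 14 alternatives. Ntf5, the gene of neurotrophin 4, had a log2 ratio of 0.05 (limma, adjusted p = 0.54).

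Of 8 tested genes of the GDNF family beside the 8, 0 passed in limma's fit and 4 had an unadjusted p below 0.05, with a median log2 ratio of 0.05. The co-receptors Gfra2 and Gfra3 had log2 ratios of 0.15 and -0.05 (limma, adjusted p = 0.10 and 0.62). Pspn and Gfral were not well above background in any pool. Of 18 tested adaptors and enzymes that carry the signal from the receptors into the cell, 0 passed in limma's fit, 3 had an unadjusted p below 0.05 and the median was -0.004. Dok6 was not well above background in any pool.

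Among 14 genes that such signalling is known to induce, as targets of activity or as feedback inhibitors, 4 were lower and 0 higher. Over all genes tested, 2.92% were lower and 2.26% higher, and the median of the 14 was -0.14. Vgf, a neuropeptide precursor induced by neurotrophins, was called, with ratios of -1.15, -0.46, -0.80 and -0.75 and a 1.73-fold lower level (limma, adjusted p = 0.00063). All 4 Vgf ratios were negative, and array 1 had the largest drop. The feedback inhibitors of MAP kinase signalling Dusp4, Spry1 and Dusp6 were lower, with log2 ratios of -0.33, -0.30 and -0.21 (limma, adjusted p = 0.0072, 0.0090 and 0.020). These genes also respond to FGF and other receptor tyrosine kinases. With the pools fitted unpaired, 0 of the 14 genes passed in limma, and Vgf had an adjusted p of 0.076. Fos, an immediate early gene named here after its values were seen, had ratios of -3.17, -0.47, -0.94 and -0.15 and did not pass (limma, adjusted p = 0.063).

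Markers of neurons and of Schwann cell precursors, cell types that can also express Ngfr, moved in the same direction as Ngfr, Bdnf and Ntf3. Of 14 tested neuron markers 10 were lower and 1 higher, against 2.92% and 2.26% of all genes tested. Their median log2 ratio was -0.37. Those called were Elavl3 (-1.08), Pou4f1 (-0.75), Nefm (-0.72) and Ina (-0.71), the last of which had -0.15 in its other probe, and Nefl was lower (-0.48) without reaching the fold change. Isl1, which is made in neurons and also in duct epithelium, was higher by 0.20. The log2 of the summed signal of the neuron list ranged from 15.85 to 15.98 in mutant and from 15.91 to 15.96 in control pools. Such a sum is set mostly by the brightest probes of a list and can stay level while dimmer markers fall. Neurod1 was well above background in at most 2 of 8 pools and was not tested.

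Of 10 tested Schwann precursor markers 4 were lower and 1 higher, against 2.92% and 2.26% of all genes tested. Their median was -0.09. The 4 lower ones were all called, namely Foxd3 (-1.17), Fabp7 (-1.03), Cdh19 (-0.63) and Ednrb (-0.59, and -0.28 in its other probe). Fabp7 is also made in cells of the sensory epithelium. The defining markers Sox10 (0.01) and Erbb3 (-0.09) had signals well above background in each pool and did not pass. The log2 of the list's summed signal was 17.40 to 17.61 in mutant and 17.44 to 17.65 in control pools. The part of both marker lists in the lower Ngfr, Bdnf and Ntf3 signals was not tested. Foxd3, Fabp7, Cdh19 and Ednrb kept an adjusted p below 0.05 in all 14 alternatives, as did Pou4f1 and Nefm. With the pools fitted unpaired, 3 neuron markers had an adjusted p below 0.05 in the lower direction, and Elavl3 and Ina had an adjusted p of 0.078 each (limma).

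The remaining cell type lists cover cells outside the epithelium, the duct epithelium and prosensory cells. Over all genes tested, 2.92% were lower and 2.26% higher at an adjusted p below 0.05. Of 7 melanocyte, 5 macrophage and 5 red blood cell markers 0 passed in limma's fit, with medians of -0.01, 0.03 and 0.13, and 1, 0 and 3 of them had an unadjusted p below 0.05. Of 9 periotic mesenchyme markers Col1a1 was higher (0.27) and Postn lower (-0.26), and of 6 endothelial markers Cldn5 was higher (0.21). All 8 pools had signals well above background for each of the 10 markers of the duct epithelium, of which Fgf10 was lower (-0.47) and Gata3 higher (0.34), and Epcam (0.02) and Cdh1 (0.18) did not pass. Of 9 prosensory markers Fgf20, Lfng and Jag1 were lower (-0.54, -0.52 and -0.19) and Hey2 was higher (0.36). The plot of lists sets these genes beside the 8.

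**Figure D3:**
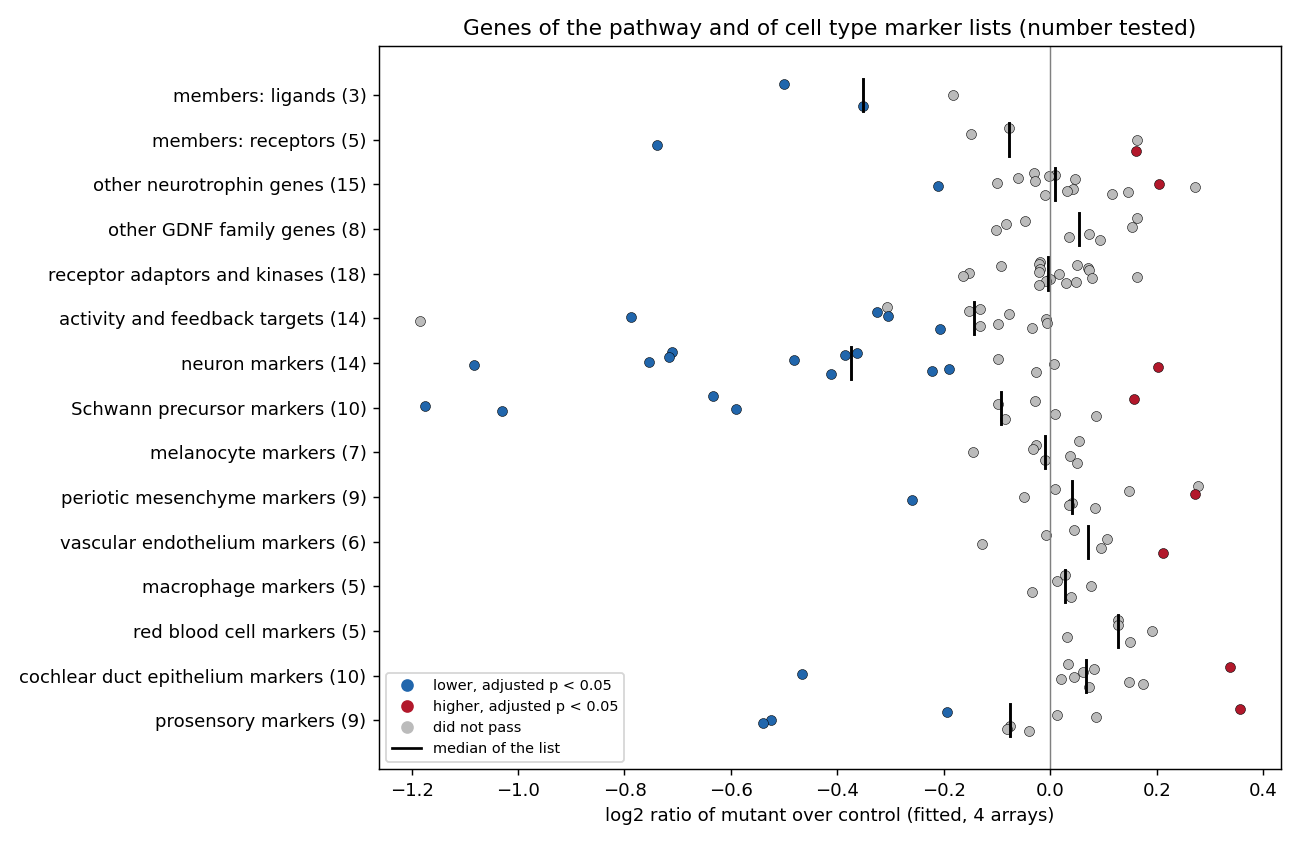
Fitted log2 ratio of mutant over control (x axis) for each tested gene of the ligand, receptor, pathway and cell type marker lists (y axis, number tested in brackets), coloured by whether it was lower, higher or did not pass at an adjusted p of 0.05, with the list's median as a black bar. The blue points, lower at an adjusted p below 0.05, include 10 of 14 neuron markers and 4 of 10 Schwann precursor markers. Over all genes tested, 2.92% were lower at that adjusted p. Further blue points lie among the ligands, receptors, other neurotrophin genes, activity and feedback targets, and mesenchyme, duct epithelium and prosensory markers. The adaptors and other GDNF family genes lie around 0.

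The genes with ratios most like those of Ngfr over the 4 arrays, by root mean square distance, were Pou4f1 (0.062), Slitrk6 (0.075), Otoa (0.087), Npy (0.089) and Me1 (0.11). Pou4f1 encodes a transcription factor of sensory neurons, Slitrk6 a transmembrane protein with leucine-rich repeats, Otoa the inner ear protein otoancorin, Npy a neuropeptide and Me1 a malic enzyme. Their ratios were between -0.94 and -0.62 on every array, in the range around the values of Ngfr itself.

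Leaving out any single array or changing the processing left Ngfr, Bdnf and Ntf3 past the test. In all 15 alternatives each of the 3 had an adjusted p below 0.05, with log2 ratios from -0.79 to -0.69 for Ngfr, from -0.54 to -0.48 for Bdnf and from -0.39 to -0.35 for Ntf3. Ngfr was past the fold change of 1.5 in each of them, and Bdnf and Ntf3 in none. The plot of alternatives shows all 8 genes.

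**Figure D4:**
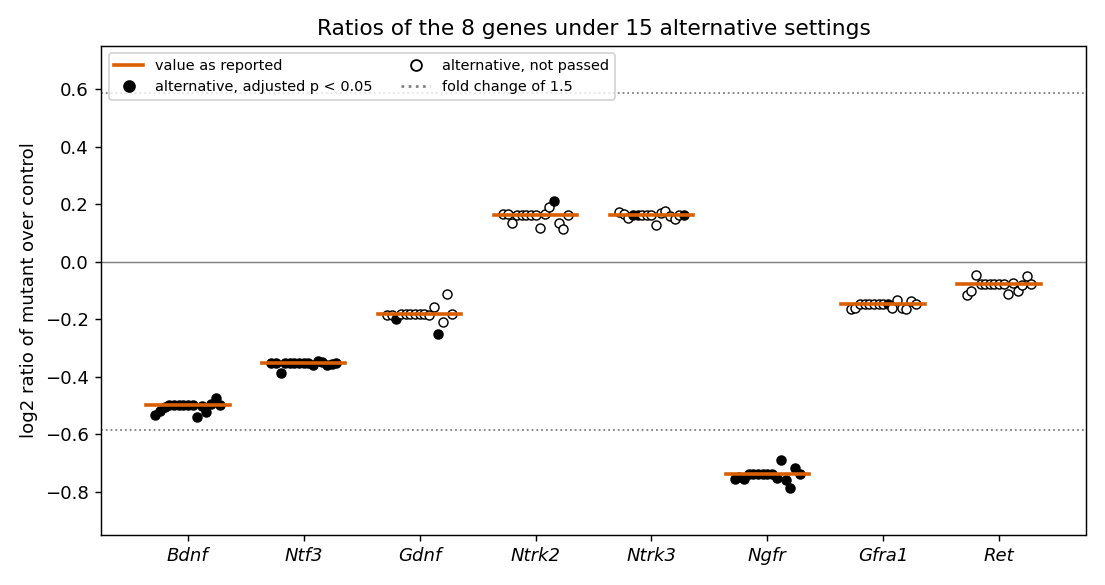
Log2 ratio of mutant over control (y axis) of each gene (x axis) as reported (orange line) and in 15 alternative settings (points, filled where the adjusted p was below 0.05), with dotted lines at a fold change of 1.5. All points of Ngfr lie beyond the dotted line and are filled, as are those of Bdnf and Ntf3 inside it, and 3 of the 15 points of Ntrk3 are filled.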

How the data were processed

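The authors extracted total RNA from the pools, and labelled cRNA was hybridised in 2 colours. Per the labels, the deposited files are the output of Agilent Feature Extraction 10.7.3.1. Their intensity values, not normalized, give per spot and dye the mean signal and the median of the local background. Agilent's processed intensity, also deposited, has background subtracted and dyes normalized. The authors' series value table holds a score per probe, a signed fold of mutant over control whose normalization is not given in the sources used here (correlation across probes with the log2 ratios computed here 0.882 to 0.913).

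Intensities were background-corrected (normexp, offset 50), loess-normalized within arrays and averaged over unflagged spots with limma 3.58.1 in R 4.3.3, with control spots left out. The study's methods give SAM with an unpaired comparison, run here as an unpaired limma fit. A probe was tested where it rose well above background in 4 or more of 8 measurements (27963 of 39429 probes), and the brightest stood for its gene. limma was fitted to the 4 log2 ratios with a dye term, and p-values were adjusted by Benjamini-Hochberg. Scripts were tested on simulated data. Pools are described as independent, and their number limits precision. The p-values measure the spread of the within-array ratios between the 4 arrays after the dye term. limma moderates this spread with that of all genes tested (5.65 prior against 2 residual degrees of freedom). Arrays shared a slide, so no slide block was fitted.

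The genes and lists were chosen with earlier results of these data known. Named were the 8 genes with every probe, called genes and up to 3 more with the lowest adjusted p below 0.05 of the pathway lists, Ntf5, Gfra2 and Gfra3, up to 3 genes with the lowest adjusted p of each marker list and those not well above background in any pool, Tbx2, Sox2 and Esr1, and the 5 genes with ratios most like Ngfr. Other called marker genes, defining Schwann markers, Isl1, Jag1, Epcam, Neurod1 and Fos were named after their values were seen. Alternatives were Agilent's processed signals, an offset of 10, median centring, other filters, no dye term, unpaired channels, sex as a block, the mean over probes, the series table and each array left out. A fit of each probe on its own was added after seeing the data. A few genes that this rule names are not reported here. Positions are mm9 as in the files, and exon annotation was not used here. The arrays at E18.5 were not analysed here.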

Additional observations from a re-analysis of the deposited data

Results flagged for a closer look

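In 70 sets of 4 values, the signals and ratios of the 13 probes and the ratios of the list genes past the test, the highest or lowest array was compared with the others by Dixon's gap ratio. Chance marks about 1 set in 20. In 1 set the gap, 0.859 of the whole range, was past the critical value: the log2 ratio of Pou4f1 was -0.94 on array 1, against -0.71 to -0.68 on the other arrays.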

How the results depend on the processing

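Ngfr, Bdnf, Ntf3 and Ret kept their direction and their side of the threshold in all 15 alternatives, and none of the 8 genes changed direction. Ntrk3 had an adjusted p below 0.05 as reported but not in 12 of 15 alternatives: the value was 0.17 from the signals processed by Agilent, 0.17 with an offset of 10, 0.15 with median centring, 0.16 without the dye term, 0.16 with unpaired channels, 0.16 with sex as a block, 0.13 as the mean over tested probes and 0.17 in the series table, with adjusted p from 0.053 to 0.73 (limma), and 0.15 to 0.17 when each array was left out. Gdnf passed with median centring (-0.20) and without array 2, in a range of -0.25 to -0.11 over the arrays left out. Ntrk2 passed without array 2, in a range of 0.11 to 0.21, and Gfra1 passed in the fit of means over tested probes (-0.15, adjusted p = 0.047, limma). Over all genes, 52 were called higher and 117 lower with Agilent's processed signals, and 99 lower in the series table. Genes with an adjusted p below 0.05 at any fold (476 higher and 615 lower as reported) were 90 and 174 without the dye term, 72 and 125 unpaired, 236 and 380 with Agilent's processed signals, 157 and 257 in the series table, and 122 to 635 higher and 231 to 643 lower when each array was left out, with the fewest higher without array 1 and the fewest lower without array 3. Neuron markers past the test in the lower direction were 10 as reported, 3 unpaired, 7 without the dye term and 8 to 9 when each array was left out, while the lower Schwann precursor markers were 4 in every setting. Mutant and control pools are paired by sharing an array, and the unpaired fit leaves this out. The cause of these differences was not tested. Signal over background limits the full-length Ntrk2 probe, which is not well above background in the mutants, and 4 arrays limit the precision of all values.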
